A study of Mus musculus with 24 samples.

Results

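Ribosomal protein genes were taken as the entries outside the X chromosome whose symbol reads Rpl or Rps followed by a number, or Rplp followed by a number, leaving out the Rps6k kinases and pseudogene symbols. The table held 81 such entries among 23119 genes, and 80 of the 81 passed the filter on low values (a mean of at least 1 FPKM, fragments scaled to transcript length and to the mapped fragments of the library, over the 24 libraries), among 12105 genes tested. Of these 80, 43 encode proteins of the large ribosomal subunit, 29 encode proteins of the small subunit, and 8 are paralogs or related symbols. Rps19bp1, one of the 8, encodes a binding partner of a ribosomal protein and not a ribosomal protein. Rpl3l, with a mean of 0.439 FPKM, was the entry that did not pass. A further 4 genes that fit the name (Rpl10, Rpl36a, Rpl39 and Rps4x) lie on the X chromosome, whose reads the authors removed, and were left out.

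RNA-seq libraries came from JB4/EI7HZ2, a female mouse embryonic stem cell (mESC) line from a cross of a JF1 female with a B6 male. It was used as wild type (WT) or as 1 SmcHD1-mutant line (KO) made by CRISPR–Cas9 with small deletions in both copies of the gene. SmcHD1 is a chromatin protein that helps maintain the inactive X chromosome. Each genotype was sampled as mESCs in serum with 2i/LIF, after 7 and 9 days of differentiation towards early neurectoderm, and as neural stem cells (NSCs) grown with FGF2 and EGF, with 3 replicates in each of the 8 groups. In the study's methods, the day 7 and 9 cells and the NSCs came from separate protocols, each started from mESCs. NSCs are thus not a later point of the day 7 and 9 course, and stage cannot be told apart from protocol and medium. Both lines carry the neo and zeo drug-resistance genes on their X chromosomes and were kept in G418 and Zeocin as mESCs and as NSCs, which removes cells that lose either X. The study's methods name neither drug for the medium of days 7 and 9. Because each genotype is 1 line, an effect of the mutation and a difference between lines cannot be told apart. Per the study's supplement, the 3 replicates of the mESCs and of the cells differentiated from them were biologically independent, while the labels themselves give replicate numbers alone. Smchd1 itself was at 13.0 to 26.4 FPKM in the 12 WT libraries and at 1.82 to 4.40 FPKM in the 12 KO libraries. The FPKM values carry no read depth, and read totals of these libraries were not used here.

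The ribosome decodes mRNA on its small subunit and joins amino acids on its large subunit, and each subunit is a shell of ribosomal proteins around ribosomal RNA. The proteins are needed in near-equal amounts, and their mRNAs are among the most abundant in growing cells. Their transcription start sites are known for a run of pyrimidines that begins with a C, the 5′ terminal oligopyrimidine (TOP) motif, through which mTORC1 signalling controls how much of the mRNA is translated. Ribosome production is high in pluripotent and other fast-growing cells, and some members have paralogs with expression limited to certain tissues.

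The sequences around the start sites are shown because the members moved together and this run is the sequence feature that the family is known for. RefSeq promoter windows (GRCm38.p6) were matched by symbol for 59 of the 81 entries. A run was counted where a C within 10 bases of an annotated start was followed by at least 6 pyrimidines on the transcribed strand. It was present for 29 of the 59 matched entries (49.2%) and for 3678 of 27025 gene symbols in all (13.6%). On the opposite strand, where the whole run had to lie within 10 bases of the start, it stood at 3.39% of the entries and 11.9% of all symbols. The strands were thus not counted alike. Each window below covers 10 bases before to 15 bases after the start, in mouse, with the run in capitals.
Rpl38, chr11:114668570-114668594, forward strand: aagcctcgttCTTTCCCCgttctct
Rplp2, chr7:141447641-141447665, forward strand: cagcgtCTTCCTTTCgccgccggac
Rps27, chr3:90213634-90213658, reverse strand: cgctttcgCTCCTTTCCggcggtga
Rps18, chr17:33955651-33955675, reverse strand: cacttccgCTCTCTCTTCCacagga
Rps27l, chr9:66946076-66946100, forward strand: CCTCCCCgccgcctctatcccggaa
Rpl39l, chr16:10170218-10170242, forward strand: aggCCTTTCCggatttccggtggtc
Rplp0, chr5:115559457-115559481, forward strand: cgggtttcgaggaccgcctggttct
Rpl23, chr11:97782425-97782449, reverse strand: gtccggtcacgtggctgagtgggcg
Rpl10l, chr12:66284387-66284411, reverse strand: cctccattttgcggctggcggtggg
The first 4 are canonical members with a run, and the last 3 hold none in this window. Rps27l and Rpl39l are paralogs whose run ends before the annotated start, so it lies outside the annotated transcript. These coordinates belong to the RefSeq build, while the expression table uses mm9, so positions from one cannot be used in the other. Among the 51 matched members that are not paralogs, 26 had a run (51%), and their median change between WT mESCs and WT NSCs was −0.78 on the log2 scale, beside −0.82 for the 25 without one. Annotated starts can differ from the starts used in these cells, so entries counted without a run may still carry the motif. The split is thus one of annotated windows and not of TOP mRNAs against others.

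In mESCs the members held between 26.4% and 31.5% of a library's FPKM summed over the genes outside X and Y. The WT mESC libraries gave 31.5%, 26.4% and 28.6% (28.8% ± 2.55, SD, n = 3), and the KO mESC libraries gave 29.1%, 27.0% and 29.2% (28.4% ± 1.25, SD, n = 3). WT cells at day 7 gave 27.5%, 27.7% and 30.9%, and at day 9 they gave 27.4%, 25.0% and 28.0%. Both differentiation days overlapped the mESCs. In WT NSCs the share was 23.3%, 23.3% and 21.0% (22.5% ± 1.35, SD, n = 3), below every WT mESC library. KO cells on day 7 gave 29.0%, 29.6% and 29.3%, and on day 9 they gave 32.4%, 30.6% and 27.9%. KO NSCs had 22.7%, 20.3% and 18.8% (20.6% ± 1.97, SD, n = 3). The KO NSC libraries again lay below all KO mESC libraries, and their range overlapped that of the WT NSCs. At each of the 3 replicate numbers the KO library was the lower one, although no label names these numbers as pairs. At day 9 the KO and WT ranges overlapped as well, with means of 30.3% and 26.8%. A share over the members has no test here.

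**Figure D1:**
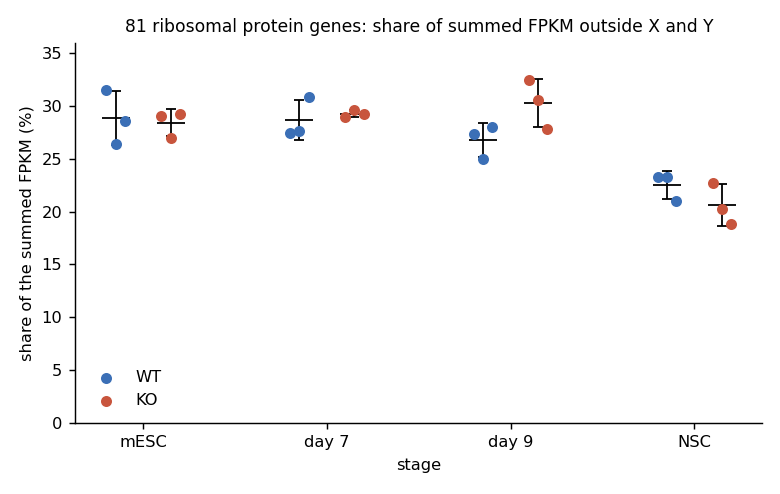
The share of each library's FPKM sum held by the ribosomal protein genes, in percent, for WT and KO cells at the 4 stages. Each point is 1 library and each bar is the mean of 3 with its SD, and the NSC libraries of both genotypes, between 18.8% and 23.3%, lie below all mESC, day 7 and day 9 libraries.

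The balance between the subunits moved little. The summed FPKM of large-subunit over small-subunit members was 1.34 ± 0.0300 in WT mESCs, 1.30 ± 0.0074 at WT day 9 and 1.35 ± 0.0242 in WT NSCs (SD, n = 3). KO cells gave 1.33 in mESCs, 1.26 ± 0.0148 at day 9 and 1.33 in NSCs. Levels differed widely between members. FPKM is per transcript length, and on that scale Rpl41 had the highest mean over the 24 libraries at 5384 FPKM, followed by Rplp1 at 5011, Rpl38 at 4676, Rpl23a at 4583 and Rps12 at 4091. Among the canonical members Rps15a was lowest at 123 FPKM and Rpl22 next lowest at 333 FPKM. The order of levels carries an uncertainty from pseudogenes: of the stretches of 80 bases in a member's transcripts, the read length of these libraries, between 0% and 99.6% were also found elsewhere in the genome, with Rps27 at 99.6%, Rps12 at 97.9% and Rps6 at 94.5%, so reads of these genes could be split or lost in alignment.

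Between mESCs and NSCs the ribosomal protein genes fell together in WT cells. All 80 tested entries were lower in WT NSCs (limma on log2(FPKM + 1), adjusted p under 0.05), where 38.3% of all tested genes were lower and 36.9% were higher. The median change was −0.80 on the log2 scale, beside −0.01 over all tested genes. Both subunits took part alike, with a median of −0.79 for the 43 large-subunit members and −0.82 for the 29 small-subunit members. Over the 72 canonical members the changes ran from −1.27 for Rpl12 to −0.38 for Rpl23, with quartiles of −0.94 and −0.70. When every library was scaled to the same FPKM sum, which put the median of all genes at 0.36, 63 of 80 were still lower and none was higher, with a median of −0.34, although the values of Rpl23 and Rps19bp1 then stood above 0, at 0.072 and 0.067. Bulk RNA cannot separate fewer transcripts in each cell from a different mix of cells.

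The ribosomal stalk, the flexible arm of the large subunit that recruits elongation factors, held the member with the largest canonical fall, Rpl12 (chr2:32817232-32819565, mm9), which forms its base. Rpl12 was at 5332, 3806 and 4343 FPKM in WT mESCs and at 2024, 1893 and 1643 FPKM in WT NSCs. The groups lay far apart, and the change was −1.27 ± 0.14 (SE, adjusted p = 4.79e-08). Rplp1 (chr9:61761090-61762317, mm9), one of the acidic stalk proteins, stood at 8569, 6621 and 7452 FPKM in WT mESCs. Day 7 libraries had 4582, 4469.5 and 5478 FPKM, day 9 libraries 3294, 2630.4 and 3311 FPKM, and NSCs 4151, 3515 and 3209.9 FPKM. It was thus already below the mESC range at day 7 (−0.64 ± 0.15, adjusted p = 0.000859), and its day 9 change of −1.29 (adjusted p = 8.35e-08) was the largest of any canonical member on that day. Rplp0, the scaffold of the stalk, went from 2911, 2912 and 2964 FPKM to 1821, 1863 and 1584 FPKM (−0.74, adjusted p = 1.64e-06), and Rplp2 changed by −0.70 (adjusted p = 1.41e-05). With these, 4 of 4 stalk members were lower in WT NSCs.

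Rpl5 and Rpl11 bind the 5S ribosomal RNA, and in their free form the pair restrains Mdm2, the ligase that degrades p53. Both were lower in WT NSCs, by −0.94 and −0.78. Rpl5 had 1333, 1071 and 1249 FPKM in WT mESCs and 629.9, 689 and 577 FPKM in WT NSCs, with no overlap. All 7 members that line the tunnel or the exit of the nascent chain were lower, with a median of −0.77. Rpl4, whose loop reaches into the tunnel, changed most among them, from 3269, 2679.9 and 3016 FPKM to 1395, 1399 and 1324 FPKM (−1.12 ± 0.10 SE, adjusted p = 1.35e-09), and Rpl19 changed least at −0.49.

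On the small subunit, 4 of 4 members at the decoding site and mRNA channel were lower in WT NSCs, among them Rps3 at −1.03 and Rps2 at −0.87. Rps2, a protein of the mRNA entry channel, had 5682, 4469 and 4671 FPKM in WT mESCs. Its day 7 values were 4509, 4762 and 5452 FPKM and its NSC values 3075, 2579 and 2424 FPKM. It overlapped the mESCs at day 7 (−0.01, adjusted p = 0.973) and lay below them in NSCs. All 7 members of the beak and head were lower with a median of −0.93, among them Rps12, which went from 6370.0, 5063 and 5369.6 FPKM to 3229.9, 2675 and 2444 FPKM (−1.01, adjusted p = 1.76e-06). The smallest falls among canonical members were those of Rpl23 and Rps9. Rps9, a protein of the small subunit body, was at 2809, 2591 and 2520.0 FPKM in WT mESCs and at 1837, 2085 and 1829 FPKM in WT NSCs, a change of −0.46 (adjusted p = 0.000239).

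The members with known roles in signalling or in translation of particular mRNAs were also lower in WT NSCs in 7 of 7 cases, with a median of −0.80. Rps6, the substrate of S6 kinase downstream of mTORC1, went from 2109, 1861 and 2010.4 FPKM to 991, 1027 and 866 FPKM (−1.05, adjusted p = 4.03e-08). Rpl38, which promotes translation of a subset of Hox mRNAs in the embryo, was at 6552, 4586 and 6054 FPKM in WT mESCs and at 4351, 3715 and 3192 FPKM in WT NSCs. These groups lay close together, at −0.61 ± 0.18 (SE, adjusted p = 0.00472).

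On days 7 and 9 fewer entries were lower than in NSCs, and the counts depended on how the libraries were scaled. At WT day 7, 25 of 80 entries (31.25%) were lower and none was higher. This share was near the 30.2% of all tested genes that were lower, while 29.1% were higher, and the median change of the entries was −0.25. At WT day 9, 61 of 80 were lower and none was higher, where 35.1% of all tested genes were lower and 36.4% higher, and the median was −0.45. With every library scaled to the same FPKM sum, which put the median of all genes at 0.18 and 0.34, 7 were lower and 3 higher at day 7, where 18.4% of the 12105 genes were lower and 4399 were higher. At day 9, 25 were then lower and none higher (median −0.07), where 21.6% of the genes were lower and 5850 were higher, so the counts on these days depend on the scaling. The day 7 count also moved between 12 and 49 when 1 library was left out: it was 49 without WT day 7 replicate 3, 12 without WT day 7 replicate 1 or replicate 2, 13 without WT mESC replicate 1 and 14 without WT mESC replicate 3. The 3 stage comparisons share the WT mESC libraries. Rpl41, the shortest ribosomal protein, was the member with a positive day 7 value, at 0.13 ± 0.15 (SE, adjusted p = 0.472). At day 9 Rps27 had the smallest canonical change, −0.12 (adjusted p = 0.541), next to the −1.29 of Rplp1.

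**Figure D2:**
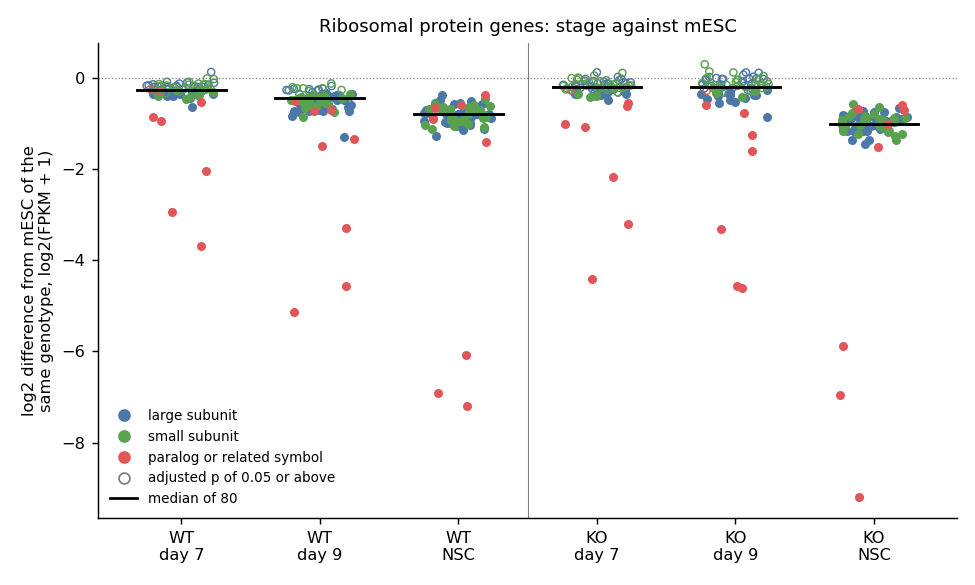
Differences in log2(FPKM + 1) of 80 ribosomal protein genes from the mESCs of the same genotype, at day 7, at day 9 and in NSCs of WT and KO cells. Each point is 1 gene, coloured by subunit and filled where it passed the test, and each bar is the median of the 80. Canonical members lie between −1.45 and −0.38 in NSCs of both genotypes, and 3 paralogs lie far below them.

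KO cells were measured against their own mESCs. In KO NSCs 80 of 80 entries were lower, where 38.2% of all tested genes were lower and 37.7% higher, with a median of −0.997. At the same FPKM sum 72 were lower and none higher, with a median of −0.47 beside 0.44 over all genes. The canonical members ran from −1.45 for Rpl12 to −0.56 for Rps9. At KO day 7, 19 of 80 were lower and none higher (background 31.8% lower and 29.5% higher, median −0.21), and at KO day 9, 25 of 80 were lower and none higher (background 35.6% lower and 35.7% higher, median −0.19). With the spread taken from the groups compared alone, 46 entries were lower at KO day 7, where 33.6% of all tested genes were lower. At the same FPKM sum the KO day 7 counts became 6 higher and 8 lower, with a median of 0.02 beside 0.14 over all genes, of which 4363 were higher and 20.9% lower. With the same sum of non-members they were 3 higher and 6 lower, where 4577 genes were higher and 21.0% lower. At the same FPKM sum, which moved the day 9 median of all genes up by 0.24, 21 entries were higher and 13 were lower on that day, where 5324 of the 12105 genes were higher and 24.8% were lower. Without KO mESC replicate 3 the counts were 8 at day 7 and 16 at day 9, without KO day 7 replicate 1 or replicate 3 the day 7 count was 11, and without KO day 9 replicate 3 the day 9 count was 15, of which 1 was higher. WT and KO stage comparisons share no library. Across the 72 canonical members the WT and KO changes correlated with Pearson's r of 0.92 for day 7, 0.93 for day 9 and 0.87 for NSCs, as a description across genes that share libraries and are not independent.

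Some paralogs changed more in WT NSCs than any canonical member: Rps4y2 and Rpl7l1 passed below the canonical range, and Rpl10l and Rpl39l were listed at 0. Rpl10l, a retrocopy of Rpl10 with highest known use in testis, was at 108, 121 and 129 FPKM in WT mESCs. By day 7 its values were 10.0, 6.17 and 9.38 FPKM, by day 9 they were 1.67, 2.35 and 3.48 FPKM, and it was listed at 0 in all 6 NSC libraries. No library of a later stage came near the mESC range, and the changes were −3.67 at day 7 (adjusted p = 2.05e-12) and −5.13 at day 9 (adjusted p = 3.64e-15). KO cells gave 107, 117 and 147 FPKM in mESCs and 4.81, 2.57 and 5.92 FPKM at day 9.

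Rpl39l, a paralog of Rpl39 also best known from male germ cells, had a similar course. Its WT mESC values were 82.8, 48.6 and 71.8 FPKM, its day 7 values 10.2, 7.40 and 6.03 FPKM and its day 9 values 3.98, 0 and 3.55 FPKM. It too was listed at 0 in every NSC library, and the day 7 change was −2.95 (adjusted p = 2.56e-06). Their X-linked parents could not be set beside them, but none of the 80-base stretches of Rpl10 or Rpl39 occurred in Rpl10l or Rpl39l.

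Rps4y2, which despite its symbol is listed on chromosome 6 (chr6:147995938-148392874, mm9), is named as a copy of Rps4. The deposited locus is long and is shared with Far2, 4732416N19Rik, Ergic2 and Tmtc1, so reads of neighbours could enter its estimate. Rps4y2 was at 654, 734 and 705 FPKM in WT mESCs. Day 7 libraries had 182, 146 and 184 FPKM, day 9 libraries 71.4, 69.6 and 68.4 FPKM, and NSCs 7.20, 5.56 and 0.956 FPKM. Each WT group lay below the one listed before it, and the changes against mESCs came to −2.03 (adjusted p = 1.17e-05), −3.30 (adjusted p = 8.79e-09) and −7.21 (adjusted p = 3.01e-14) in that order. KO NSCs were lower still, as described with the comparison of genotypes. Rpl3l, the paralog of Rpl3 in heart and skeletal muscle, reached at most 2.13 FPKM, in WT mESCs, and was at 0.248 FPKM or below in every later library.

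The other paralogs stayed expressed. Rps27l, a p53 target that resembles Rps27, was at 1116, 998 and 1114 FPKM in WT mESCs, 407, 366 and 367 FPKM at WT day 9 and 787, 455 and 532 FPKM in WT NSCs. Its day 9 change was −1.50 (adjusted p = 5.35e-08) and its NSC change −0.90 (adjusted p = 4.76e-05), so the day 9 libraries were its lowest in WT. Rpl7l1 changed by −1.41 in WT NSCs (adjusted p = 2.38e-11), from 153, 191 and 189 FPKM to 73.8, 61.7 and 62.7 FPKM. Rpl36al and Rpl22l1 changed by −0.66 and −0.60, within the canonical range. Rps19bp1 was just past the threshold in WT NSCs (−0.37, adjusted p = 0.0496). Its value ran from −0.59 without WT mESC replicate 1 to −0.22 without WT mESC replicate 2, and the call was lost in 4 of the 6 fits that left out 1 library, those without WT mESC replicate 2 or 3 or WT NSC replicate 1 or 2.

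Set against its canonical partner, Rpl22l1 was the more abundant of the pair in mESCs and NSCs. Rpl22, which also represses expression of its paralog, was at 518, 319.7 and 390.2 FPKM in WT mESCs beside 602, 399.6 and 538 FPKM of Rpl22l1. Rpl22l1 stood at 126% ± 10.9 of Rpl22 in WT mESCs and at 148% ± 22.4 in WT NSCs (SD, n = 3), with 98.1% and 95.3% on WT days 7 and 9, and KO NSCs reached 175% ± 27.7. The log2 ratio was 0.22 higher in WT NSCs than in WT mESCs (exact two-sided permutation test, p = 0.3), a difference within the spread between libraries, and it was 0.10 without WT NSC replicate 1. In KO cells the log2 ratio was 0.43 higher in NSCs (exact two-sided permutation test, p = 0.1), with 123% to 133% in mESCs and 144% to 198% in NSCs, which do not overlap. Rps27l stood at 24.2% ± 2.90 of Rps27 in WT mESCs, went down to 13.6% and 9.26% on days 7 and 9, and was at 19.5% ± 4.38 in WT NSCs. The smallest p that 3 against 3 libraries can give is 0.1, and of the 8 ratio comparisons the adjusted values lay between 0.2 and 0.3, so none could pass.

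**Figure D3:**
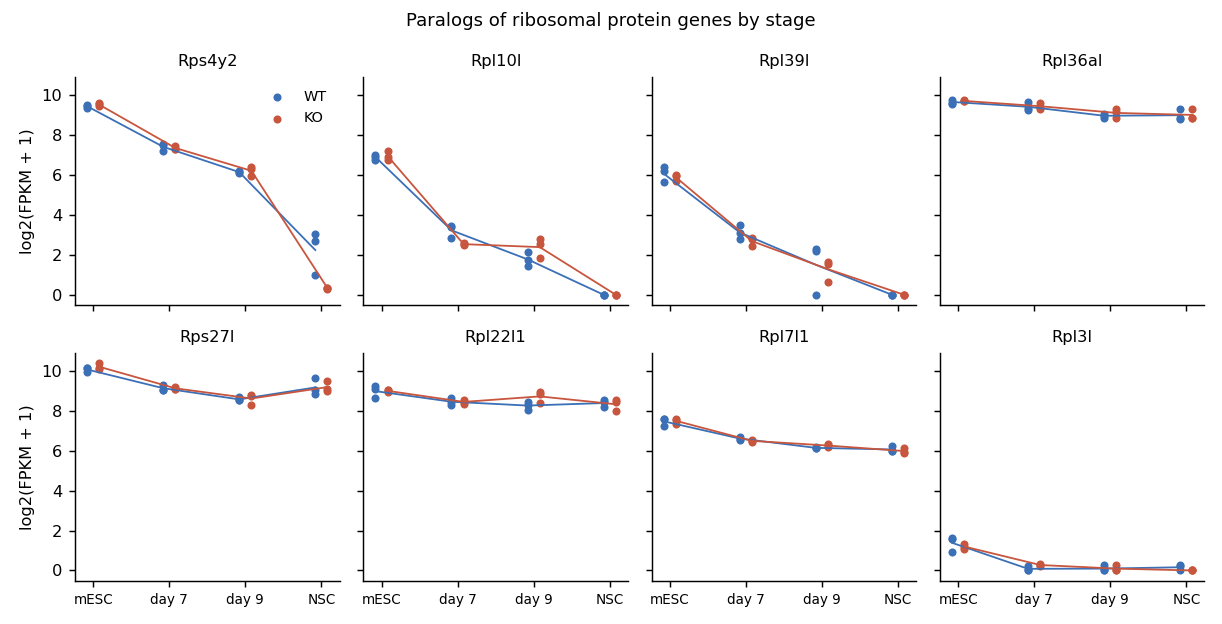
Levels of 8 paralogs in WT and KO cells at the 4 stages, as log2(FPKM + 1), with 1 point per library and lines through the means of 3. Rpl10l and Rpl39l drop from mESCs to 0 in NSCs, Rps4y2 drops to between 0.956 and 7.20 FPKM in WT NSCs and to 0.283 FPKM or below in KO NSCs, Rpl3l is near 0 throughout, and the other 4 stay expressed.

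Between KO and WT mESCs no difference was detectable in these genes. None of 80 entries was called in either direction, where 0.116% of all tested genes were higher and 0.413% were lower, and none had an unadjusted p under 0.05. The median difference was 0.01 and the lowest adjusted p was 0.813. At day 7 none was called by limma, where 1.18% of all tested genes were higher and 2.5% were lower, 1 had an unadjusted p under 0.05, and 66 of 80 differences were above 0 with a median of 0.06. The lowest adjusted p there, 0.0665, belonged to Rpl10l (−0.69), which was called without WT day 7 replicate 2. No entry was called for the difference from the mESC effect at day 7, where 1.68% of all genes were called in either direction and 1 entry had an unadjusted p under 0.05.

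At day 9 most KO minus WT differences were above 0, at 78 of 80 entries with a median of 0.28, while 1 entry, Rplp0, passed the test and none was lower (background 2.58% higher and 4.11% lower). At the same FPKM sum the median of the entries was 0.17, beside −0.10 over all genes. The KO libraries lay wholly above the WT libraries for 35 of 80 entries, where this held for 15.4% of all tested genes. Rplp0 (chr5:116009476-116013738, mm9) was at 2002, 1753 and 2063 FPKM in WT and 2743, 2609 and 2283 FPKM in KO cells at day 9. The groups did not overlap, and the difference was 0.39 ± 0.11 (SE, adjusted p = 0.0252). Under 14 alternatives its adjusted p lay between 0.00802 and 0.173. The call was lost without WT day 9 replicate 2 (0.173), KO day 9 replicate 1 (0.148) or KO day 9 replicate 2 (0.092). Next came Rplp1 at 0.48 ± 0.15 (SE, adjusted p = 0.0574), with 3294, 2630.4 and 3311 FPKM in WT and 4773, 4588 and 3530.4 FPKM in KO cells.

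The number of day 9 calls was small and unstable. It was 8 without KO day 9 replicate 3, 2 without WT day 9 replicate 3 and 0 without KO day 9 replicate 1, and without WT day 9 replicate 2 the single call was Rpl39l, which was lower. Tested as a difference from the mESC effect, none of 80 entries was called, with 5 at an unadjusted p under 0.05 and 2.68% of all genes called in either direction. Marker genes of other states moved at the same time: the summed FPKM of 7 early neurectoderm markers was 120 to 188 in WT and 201 to 238 in KO day 9 libraries, that of 9 pluripotency markers was 363 to 459 in WT and 480 to 657 in KO, that of 9 mesoderm and endoderm markers was 43.9 to 89.5 in WT and 10.9 to 29.0 in KO (Mesp1 at 0), and that of 5 neuron and glia markers was 385 to 424 in WT and 208 to 308 in KO. Such sums weigh the most abundant markers most, and the part of these differences in cell state in the ribosomal protein values was not tested.

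**Figure D4:**
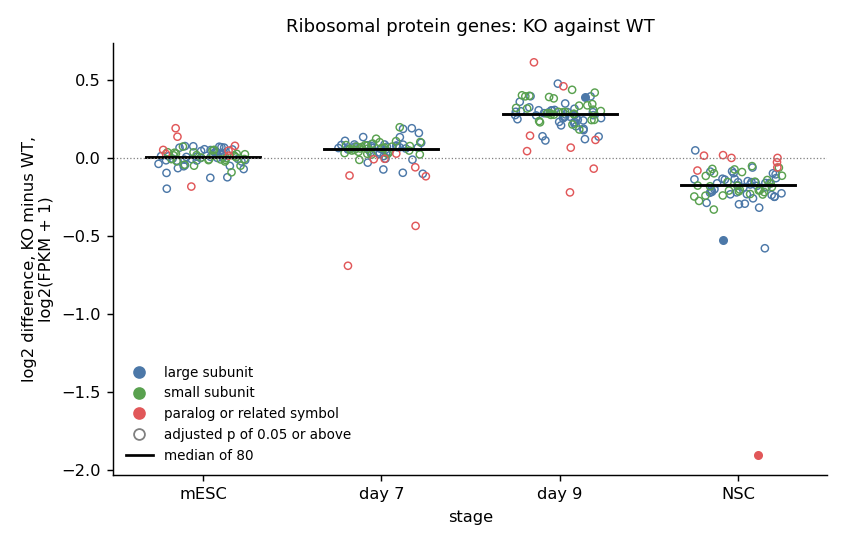
KO minus WT differences in log2(FPKM + 1) of the ribosomal protein genes at each stage, 1 point per gene, filled where it passed the test and with a bar at the median of 80. The median lies at 0.01 for mESCs, 0.06 for day 7, 0.28 for day 9 and −0.18 for NSCs.

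In NSCs most differences had the opposite sign. The median KO minus WT difference was −0.18, 75 of 80 entries were below 0, and 2 passed the test, both lower: Rpl23 and Rps4y2 (background 3.48% lower and 2.54% higher). The groups lay wholly apart with KO lower for 5 of 80, where this held for 8.54% of all tested genes. Summed FPKM of the 8 NSC markers was 5598 to 7143 in WT and 4133 to 4984 in KO NSCs. Fabp7 alone had a mean of 3862 FPKM in WT NSCs, so the sum rests largely on it. Of the 8 markers 2 were called lower in KO NSCs, Vim and, on distal chromosome 11, Sox9. The mesoderm and endoderm markers summed to 0.903 to 1.26 FPKM in WT and 2.62 to 5.36 FPKM in KO NSCs, and the other marker sums overlapped. The part of these differences in the values was not tested.

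Rps4y2 read 7.20, 5.56 and 0.956 FPKM in WT NSCs and 0.283, 0.253 and 0.242 FPKM in KO NSCs. All KO libraries were below the lowest WT library, which itself stood apart from the other WT libraries. The difference was −1.91 ± 0.31 (SE, adjusted p = 0.000608), with adjusted p between 9.75e-11 and 0.209 over the alternatives. It was lost, at 0.209, when the spread was estimated from the groups compared alone. In mESCs the gene was at 654 to 734 FPKM in WT and 695 to 769.8 FPKM in KO, and the change of the effect from mESCs to NSCs was −1.98 ± 0.44 (SE, adjusted p = 0.02), the single call of that kind among the 80 (background 1.12% lower and 1.14% higher). Without KO mESC replicate 3 that adjusted p was 0.0516, and with the groups compared alone it was 0.189.

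Rpl23 (chr11:97638840-97643753, mm9), a large-subunit protein that can also bind Mdm2, was at 1423, 1457 and 1268 FPKM in WT NSCs and 1135, 921 and 843 FPKM in KO NSCs. The groups did not overlap, and the difference was −0.52 ± 0.14 (SE, adjusted p = 0.0215, 0.00269 to 0.216 over the alternatives). The call was lost without WT NSC replicate 2 (0.0645), KO NSC replicate 2 (0.0823) or KO NSC replicate 3 (0.136), and with the groups compared alone (0.216). Rpl38, on the same chromosome (chr11:114529857-114533645, mm9), had the largest canonical difference. Its values were 4351, 3715 and 3192 FPKM in WT NSCs and 3416, 2234 and 2026 FPKM in KO NSCs, which overlap, at −0.58 ± 0.18 (SE, adjusted p = 0.0629). In the fit with the replicate number as a block, Rpl38 passed as the third call (adjusted p = 0.0151). No label or method names these numbers as pairs, and same-numbered NSC libraries correlated at 0.18 to 0.34 in their deviations from the group means.

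Genes around Rpl23 and Rpl38 had lower values as well. In windows of 20 Mb along chromosome 11, chosen after these values were seen, the median KO minus WT difference of tested genes that are not members was between 0.00 and 0.04 up to 80 Mb. It was −0.19 for 182 genes between 80 and 100 Mb, with 28 called lower and 0 higher, −0.29 for 238 genes between 100 and 120 Mb, with 44 called lower and 1 higher, and −0.28 for 46 genes beyond. The 4 members there were Rpl19 at −0.29, Rpl23 at −0.52, Rpl27 at −0.29 and Rpl38 at −0.58. The 3 members below 80 Mb were Rpl26 at −0.22, Rps27a at −0.18 and Rpl23a at −0.09. Over the 466 genes beyond 80 Mb the median against the WT mean was −0.22, −0.25 and −0.26 in the 3 KO NSC libraries and between −0.06 and 0.08 in the WT NSC libraries, and between −0.04 and 0.04 in the KO libraries of the earlier stages. The part of this regional shift in the values of Rpl23 and Rpl38 was not tested.

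The same kind of value stood out on chromosome 16 at the earlier stages. Genes there that are not members had a median KO minus WT difference of −0.10 in mESCs, −0.14 at day 7 and −0.16 at day 9 (384 genes). The 2 canonical members on that chromosome, Rpl24 and Rpl35a, were at −0.07 and −0.12 in mESCs and at −0.07 and −0.10 at day 7. At day 9 they were at 0.14 and 0.11, at the lower end of the canonical range that ran to 0.48.

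Members tracked each other closely over the 24 libraries. The Pearson correlation of a member's log2(FPKM + 1) with the mean of the other members was highest for Rpl15 at 0.997 and lowest for Rps19bp1 at 0.47, Rps27l at 0.51 and Rpl22l1 at 0.77. Outside the family, the genes with the pattern most like the member mean were Eef1b2 (r of 0.994), Gnb2l1 (0.989), Naca (0.981), Eif3k (0.977), Polr1c (0.973), Fkbp3 (0.966), Nme6 (0.964) and Mettl5 (0.960). Eef1b2 encodes an elongation factor subunit, Gnb2l1 encodes Rack1, a protein bound to the small subunit, and Naca binds nascent chains at the exit. These values describe 24 libraries that share stages and scaling.

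Most genes in the other lists of ribosome production and translation were lower in WT NSCs, where 38.3% of all tested genes were lower, and the lists were not tested against the ribosomal proteins. The ribosomal proteins known by other symbols were lower in 4 of 4 cases (median −0.65), among them Gnb2l1, from 2253 ± 231 to 1083 ± 109 FPKM (SD, n = 3), and Rpsa, from 2279 ± 298 to 1407 ± 124 FPKM. RNA polymerase I and its factors, which transcribe the ribosomal RNA, were lower in 14 of 14 cases (median −0.91), with Twistnb going from 32.2 to 5.96 FPKM and Rrn3 from 104.7 to 30.1 FPKM. Ribosome biogenesis factors were lower for 64 and higher for 1 of 66 (median −1.36). Npm1, the nucleolar chaperone nucleophosmin, went from 3847 ± 397 FPKM in WT mESCs to 816 ± 226 FPKM in WT NSCs, a change of −2.27 (adjusted p = 3.03e-10), and the helicase Ddx18 changed by −2.07.

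Chaperones and importers of ribosomal proteins were lower for 8 and higher for 1 of 11 (median −0.78), led by Grwd1 and Ipo5 at −1.62 and −1.42. Elongation factors were lower for 9 of 10 (median −0.91), with Eefsec at −1.58 and Eef1e1 at −1.36. Initiation factors were lower for 26 and higher for 3 of 33 (median −0.89), and they held opposite extremes: Eif2s2, a subunit of eIF2, went from 1109 to 163 FPKM while Eif4g3 went from 1.92 to 34.6 FPKM.

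The remaining lists ranged from mixed to mostly lower. Regulators of TOP mRNAs and mTORC1 were lower for 7 and higher for 7 of 20 (median 0.13), with the mTOR inhibitor Deptor at −3.13 and Tia1 at 2.01. Of the Myc family and partners 5 of 11 were lower and 4 higher, with Mycn at −3.63 and Mxd4 at 2.95. Hosts of small nucleolar RNAs were lower for 12 of 15 (median −0.84), led by Snhg3 at −2.04. Mitochondrial ribosomal proteins, a family of similar size, were lower for 47 and higher for 7 of 76 with a median of −0.45, and Mrpl15 changed most at −1.72. Proteasome subunits, which build another large complex, were lower for 32 and higher for 2 of 36 (median −0.77). The p53 list was lower for 5 and higher for 1 of 10, with Trp53 itself going from 283 ± 65.9 to 61.2 ± 20.2 FPKM.

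Scaling to the same FPKM sum, applied to the lists after their values were seen, moved the lists up together with the median of all genes, which then stood at 0.36, with 5999 of the 12105 genes higher and 25.3% lower. Biogenesis factors were then lower for 61 and higher for 2 of 66 (median −0.92), polymerase I genes lower for 11 of 14 (median −0.48) and elongation factors lower for 6 and higher for 1 of 10 (median −0.46), beside the −0.34 of the ribosomal protein genes. Ribosomal proteins under other symbols were lower in 2 of 4 cases (median −0.20) and initiation factors were lower for 19 and higher for 7 of 33 (median −0.44). Chaperones and importers were lower for 6 and higher for 2 of 11, small nucleolar RNA hosts lower for 8 and higher for 1 of 15, and proteasome subunits lower for 21 and higher for 3 of 36. Mitochondrial ribosomal proteins were split, with 25 lower and 24 higher (median 0.00), and the medians of the Myc list and of the p53 list stood at 0.01 and 0.12, below that of all genes. The TOP and mTORC1 regulators then had 12 higher and 5 lower (median 0.54).

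**Figure D5:**
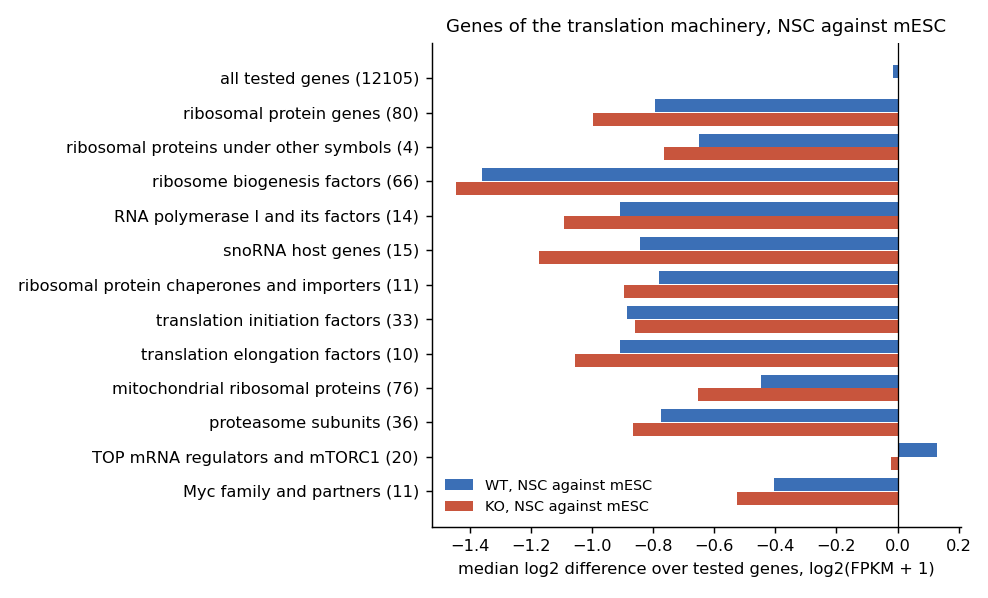
Median log2 change in FPKM + 1 of the ribosomal protein genes and of the fixed gene lists between mESCs and NSCs, in WT and KO cells. Ribosome biogenesis factors lie lowest among the lists of ribosome production and translation, at −1.36 in WT and −1.45 in KO cells, and the regulators of TOP mRNAs and mTORC1 lie at 0.13 in WT cells.

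In KO cells these lists gave the same counts or close ones against the KO mESCs: 14 of 14 polymerase I genes lower (median −1.09), 64 lower and 1 higher of 66 biogenesis factors (median −1.45), and 55 lower and 5 higher of 76 mitochondrial ribosomal proteins (median −0.65). At the same FPKM sum these were 10 of 14 lower (median −0.59), 60 lower and 2 higher (median −0.93), and 31 lower and 20 higher (median −0.14), beside 0.44 over all genes. The stage of the cells was checked on markers. The summed FPKM of the 9 pluripotency markers was 7219 to 10931 in WT mESCs and 150.2 to 222 in WT NSCs, where Zfp42 was at 0. Between KO and WT at day 9 the biogenesis list had none called in either direction (median 0.14), and the elongation factors had 2 of 10 higher, where 2.58% of all tested genes were higher, Eef1a1 at 0.38 (adjusted p = 0.0396) and Eif5a2 at 0.47 (adjusted p = 0.0364).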

How the data were processed

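RNA-seq values of 24 libraries were used. Per the labels and the study's methods, the authors trimmed reads with Trim Galore 0.6.6, aligned them with TopHat2 2.1.1 to mm9, removed ribosomal RNA and X-chromosome reads, and computed the deposited FPKM values with Cuffdiff of Cufflinks, whose between-library normalization is not given in the sources used here. A further 12 columns in the table belong to other series and were not used. Genes outside X and Y with a mean of at least 1 FPKM and no failed estimate (1 gene) were tested on log2(FPKM + 1), so fold changes of low genes are understated, with limma 3.58.1 in R 4.3.3, in 1 fit of the 8 groups without a block, with trended and robust moderation, two-sided, with Benjamini-Hochberg adjustment over 12105 genes. The fit was tested on simulated data. Named genes were the paralogs, role lists, extremes of level and stage change, called members, the 2 largest changes per list and the 8 most alike genes. Neither the labels nor the study's methods name a pairing of libraries. For KO against WT in mESCs and NSCs, same-numbered libraries correlated at 0.14 to 0.44 and 0.18 to 0.34 in their deviations from the group means. Whether the numbers mark real pairs is not known. Members and lists were chosen with earlier results of these data known. Alternatives changed the pseudocount, filter, scaling, samples in the fit, moderation and block, and left out single libraries.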

Additional observations from a re-analysis of the deposited data

Results flagged for a closer look

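The effect of the KO on Rps4y2 differed between mESCs and NSCs by a test of the difference itself. The KO minus WT difference of log2(FPKM + 1) was 1.98 lower in NSCs than in mESCs (−1.98 ± 0.44 SE, limma adjusted p = 0.02), with 0.283, 0.253 and 0.242 FPKM in KO NSCs beside 7.20, 5.56 and 0.956 FPKM in WT NSCs. All 3 KO NSC libraries lay below all 3 WT NSC libraries. Without WT NSC replicate 3, the lowest WT library, the value was −2.62, and without KO mESC replicate 3 the adjusted p was 0.0516. The locus is shared with 4 neighbouring genes in the deposited table, and their part in the value was not tested.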

How the results depend on the processing

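The falls in NSCs held for most entries, but not all, under each alternative run. Between 63 and 80 were lower in WT and 72 to 81 in KO cells, where 81 were tested without the filter on low values. Day 7 and day 9 calls depended on scaling. With the same FPKM sum, 10 were called at WT day 7, 25 at WT day 9, 34 at KO day 9 (21 higher, 13 lower) and 4 for KO against WT at day 9. Over all 12105 genes these counts were 6628, 8460, 8324 and 900. With the same sum of non-members the entry counts were 8, 24, 26 (18 higher, 8 lower) and 3, and those over all genes 6829, 8567, 8496 and 826. The 4 and 3 entries for KO against WT were higher, as were 204 and 267 of all genes. At KO day 7 the entry counts under these scalings were 14 (6 higher, 8 lower) and 9 (3 higher, 6 lower), beside 6894 and 7118 over all genes. At the same FPKM sum, which moved the median of all genes to 0.34 at WT day 9, 0.36 in WT NSCs and 0.24 at KO day 9, 26, 2 and 53 of the 80 entries stood above 0. Among the genes named by rule that were lower before this scaling and passed the test, these were Rpl3 (0.023), Rpl22 (0.057), Rps9 (0.025) and Rpl13a (0.036) at WT day 9, Rpl23 (0.072) and Rps19bp1 (0.067) in WT NSCs and Rplp0 (0.022) at KO day 9. At the same sum of non-members, with all genes at 0.30 and 0.27 on these days, 17 and 59 entries stood above 0, and among the same named genes these were Rpl22 (0.016) at WT day 9 and Rplp0 (0.060), Rplp2 (0.011) and Rps2 (0.0037) at KO day 9. With the spread taken from the groups compared alone, 16 were called at WT day 7, 46 at KO day 7, 0 for KO against WT in NSCs and 0 for the change of the KO effect in NSCs. Over all 12105 genes these counts were 6403, 7857, 58 and 57. The 16 and 46 entries were all lower, where 26.5% and 33.6% of all genes were lower.

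With the replicate number as a block, KO against WT gave 1 call at day 7, 12 at day 9 and 3 in NSCs, where 641, 1155 and 1145 of the 12105 genes were called, beside 446, 809 and 729 without the block. In the day 7, day 9 and stage comparisons same-numbered libraries did not all correlate over 0.1, and the block moved no other count by over 1.5 times. The member share of KO NSCs against KO mESCs was −10.5 percentage points over a sum without the 100 most abundant other genes, and the Rpl3l to Rpl3 ratio with a pseudocount of 0.1 was −2.51 in WT and −3.06 in KO cells. The cause was not tested for any of these.

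Leaving out 1 library gave 0 to 0 calls for KO against WT in mESCs, 0 to 1 at day 7, 0 to 8 at day 9 (1 without WT day 9 replicate 2, and that lower) and 1 to 4 in NSCs. It gave 12 to 49 at WT day 7, 46 to 69 at WT day 9, 79 to 79 in WT NSCs, 8 to 18 at KO day 7, 15 to 31 at KO day 9, 80 to 80 in KO NSCs and 0 to 1 for the change of the KO effect in NSCs. For KO against WT in NSCs the count was 4 without KO replicate 1 and 1 without WT replicate 2, KO replicate 2 or KO replicate 3. Counts over all genes in these fits are not given here. FPKM values give no depth, so counting error could not be set apart from the spread between libraries, and reads shared with pseudogenes were not traced.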

Other observations

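A few members of the surrounding lists differed between KO and WT NSCs while most did not. Of the mitochondrial ribosomal proteins 8 of 76 were lower in KO NSCs and 1 was higher, where 3.48% of all tested genes were lower and 2.54% higher. Of these 8 genes 3 lie beyond 80 Mb on chromosome 11, among 7 tested members of the list there, and the part of the regional shift in their values was not tested. The elongation factor subunit Eef1g differed by −0.32 (limma adjusted p = 0.0363) and Mycn, a driver of growth in neural progenitors, by −1.29 (adjusted p = 0.00839).

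At day 9 the p53 list, which responds to free ribosomal proteins, had 3 of its 10 tested genes lower in KO cells, where 4.11% of all tested genes were lower and 2.58% higher. These were the cell cycle inhibitor Cdkn1a at −1.60, Phlda3 at −1.03 and Ccng1 at −0.87 on the log2 scale. The meso- and endoderm markers differed most at day 7, with sums of 120 to 292 FPKM in WT and 5.07 to 8.22 FPKM in KO libraries, and the part of such differences in cell state in the p53 list was not tested.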
